A study of Mus musculus with 4 samples.

Results

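Many mammalian coding genes can start transcription at more than 1 place. This account describes annotated starts that lie inside their gene, well downstream of its 5′ end, and asks which of them carried the histone mark H3K27ac in mouse cortex. The members were all transcription start sites (TSSs) of autosomal protein-coding genes in the GENCODE vM21 basic annotation of mm10 that lay at least 5 kb downstream of the gene's 5′ end and at least 5 kb from a TSS of any other coding gene. The 5′ end is the most upstream basic TSS of the gene. Of 39627 distinct TSSs in 20807 autosomal coding genes, 4119 met the rule, and they belonged to 2512 genes, 12.1% of all. They lay between 5.002 and 2857 kb from the 5′ end, with a median of 24.997 kb (interquartile range 10.3 to 71.4 kb), and 1686 genes had 1 such start while 370 had 3 or more.

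H3K27ac was mapped by chromatin immunoprecipitation and sequencing (ChIP-seq) in tissue of the left cerebral cortex from female mice that were adult, at 2 months of age. All samples were B6CASTF1/J, the first-generation hybrid of the C57BL/6J and CAST/EiJ strains, with no treatment and no second condition. The 4 libraries formed 1 group of 2 pools, here called I and J, each made of 4 biosamples and represented by 2 technical libraries. Peaks of 3 lists were used side by side, those of pool I (69835 peaks), those of pool J (49839) and a list replicated between pools (72027), which supplied every value unless another list is named. Because no condition was contrasted and each pool gave 1 list, no test across samples was possible, and the difference between the pool lists is the only measure of spread between pools. Reads from the CAST allele may align less well to a C57BL/6J reference, and the part of this in any missing peak was not tested. The tissue held many cell types, so few acetylated cells and weak acetylation in many cells cannot be told apart, nor whether 2 starts of a gene were marked in the same cells.

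H3K27ac is an acetylated lysine on the tail of histone H3 that is found on nucleosomes beside active promoters and enhancers. An internal promoter lets a gene make a shorter RNA, with another first exon and often another N-terminus of the protein, and lets that form be used in other cells or at other times than the full-length one. Long neuronal genes are known for this: the alpha- and beta-neurexins, the first exons of Bdnf and the short and long forms of the cAMP phosphodiesterases all come from separate promoters of 1 gene. An acetylated internal start may be such a promoter or an enhancer within the gene, and H3K27ac alone does not separate them.

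Sequences are shown first, with the 5′ end, which had no peak, set beside the internal start in Igsf8 and Dennd6a only. Each is the 250 bases before the TSS, from GRCm38.p6 (mm10). The genes are those that had the highest internal signal and no peak within 1 kb of the 5′ end. Left out were 2 genes in which this stretch overlaps an annotated exon. All are printed 5′ to 3′ along the gene's strand, with each CG dinucleotide in capitals. The stretches are chr1:172311521-172311770 (plus strand) for the internal start of Igsf8 and chr1:172261391-172261640 for its 5′ end, chr14:26579311-26579560 (plus) for the internal start of Dennd6a and chr14:26573606-26573855 for its 5′ end, chr2:165884875-165885124 (minus) for Zmynd8, chr5:8056277-8056526 (plus) for Sri, chr12:73907654-73907903 (plus) for Hif1a and chr1:50927269-50927518 (plus) for Tmeff2.
Igsf8 internal: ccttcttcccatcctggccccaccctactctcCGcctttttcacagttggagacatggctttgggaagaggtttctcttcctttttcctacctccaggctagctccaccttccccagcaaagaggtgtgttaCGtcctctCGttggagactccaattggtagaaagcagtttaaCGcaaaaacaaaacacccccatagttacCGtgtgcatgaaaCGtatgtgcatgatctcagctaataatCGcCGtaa
Igsf8 5′ end: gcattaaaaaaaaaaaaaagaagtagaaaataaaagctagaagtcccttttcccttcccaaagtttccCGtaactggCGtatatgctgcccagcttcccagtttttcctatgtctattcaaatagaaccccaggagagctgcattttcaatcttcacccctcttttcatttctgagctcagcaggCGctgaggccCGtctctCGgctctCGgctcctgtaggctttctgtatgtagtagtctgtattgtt
Dennd6a internal: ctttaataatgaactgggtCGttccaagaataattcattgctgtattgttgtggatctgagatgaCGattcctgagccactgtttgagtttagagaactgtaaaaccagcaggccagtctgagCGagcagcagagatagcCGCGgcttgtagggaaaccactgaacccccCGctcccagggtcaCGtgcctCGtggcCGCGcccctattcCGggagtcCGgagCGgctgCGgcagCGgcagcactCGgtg
Dennd6a 5′ end: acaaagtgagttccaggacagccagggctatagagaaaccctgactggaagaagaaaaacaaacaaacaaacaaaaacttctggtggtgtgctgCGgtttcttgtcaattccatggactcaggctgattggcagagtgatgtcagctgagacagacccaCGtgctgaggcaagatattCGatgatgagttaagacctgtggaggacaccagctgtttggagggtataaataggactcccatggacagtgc
Zmynd8 internal: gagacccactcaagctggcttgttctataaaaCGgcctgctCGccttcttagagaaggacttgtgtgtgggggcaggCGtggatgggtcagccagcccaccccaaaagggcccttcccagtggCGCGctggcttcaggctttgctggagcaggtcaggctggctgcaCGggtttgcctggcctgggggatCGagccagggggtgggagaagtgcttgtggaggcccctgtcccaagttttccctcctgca
Sri internal: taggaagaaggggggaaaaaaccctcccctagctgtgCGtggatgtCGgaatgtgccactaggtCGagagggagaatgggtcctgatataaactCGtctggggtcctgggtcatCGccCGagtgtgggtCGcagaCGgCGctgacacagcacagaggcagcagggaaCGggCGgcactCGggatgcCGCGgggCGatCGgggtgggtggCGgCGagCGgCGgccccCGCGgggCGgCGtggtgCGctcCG
Hif1a internal: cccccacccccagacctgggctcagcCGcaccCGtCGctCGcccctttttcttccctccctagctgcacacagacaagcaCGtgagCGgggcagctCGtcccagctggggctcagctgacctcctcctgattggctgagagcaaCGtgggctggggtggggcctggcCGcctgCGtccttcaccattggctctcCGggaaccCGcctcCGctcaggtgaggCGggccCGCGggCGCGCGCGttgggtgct
Tmeff2 internal: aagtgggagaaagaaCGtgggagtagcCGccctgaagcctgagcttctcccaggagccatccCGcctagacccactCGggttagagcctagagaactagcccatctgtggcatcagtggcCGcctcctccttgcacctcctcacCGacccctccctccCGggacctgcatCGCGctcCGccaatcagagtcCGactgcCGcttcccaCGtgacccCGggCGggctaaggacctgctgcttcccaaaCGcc

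Before the internal start of Dennd6a the 250 bases held 16 CG dinucleotides, against 3 before its 5′ end. In Igsf8 the counts were 8 and 6. Sri had 26, Hif1a 20 and Tmeff2 16, whereas Zmynd8, which also had a strong internal peak, had 7. The printed bases of Igsf8, Zmynd8, Sri and Tmeff2 lay wholly inside the peak, and those of Dennd6a and Hif1a lay wholly outside it, since there the peak began just downstream of the start.

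Internal starts were less often acetylated than starts of coding genes in general, and far more often than the gene body between. A peak lay within 1 kb of 1675 of the 4119 internal TSSs, 40.7% (95% Clopper-Pearson interval 39.2 to 42.2%), where 59.5% of all TSSs of autosomal coding genes had one. In the list of pool I, 1672 members (40.6%) had a peak, where the share of all coding TSSs was 59.4%, and in the list of pool J 1434 (34.8%), where it was 56.1%. These intervals treat each TSS as a separate draw, although many starts shared a gene or a peak, so they can be too narrow. They do not cover the sampling of mice. At the 5′ ends of the same 2512 genes the count was 1423 (56.6%, interval 54.7 to 58.6%), close to the 57.5% of the 5′ ends of all autosomal coding genes. Neighbouring starts often shared a peak: the 1675 members had 1039 distinct strongest peaks, and when TSSs within 1 kb of one another were counted once the share was 33.8%.

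The gene body gave the local background. Midway between the 5′ end and internal TSSs at least 10 kb from it, where that point was at least 5 kb from every coding TSS, a peak lay within 1 kb of 313 of 2805 points, or 11.2%. In the pool I list 12.1% of these points had a peak and in the pool J list 7.56%. With a −log10 q of at least 5 the share was 7.02%, and with a window of 2500 bp in place of 1 kb it was 17.7%. The 2805 members that gave those points had a peak in 43.2% of cases. Midpoint peaks had a signal of 3.97 at the median and were 887 bp wide, near the 3.67 of all 72027 peaks, which were 597 bp wide at the median. Signal is the per-peak value in the deposited peak lists, and the sources used here do not give its scale, so it is compared within a list only.

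Peak coverage was highest close to the internal start. Not every peak covered the TSS itself: 40.7% of internal TSSs had one within 1 kb and 29.4% were covered. Coverage by peaks was 8.18% at 5 kb before the internal TSSs, 29.4% at the TSS itself, highest at 34.4% at 200 bp downstream and 7.33% at 5 kb after. Around the 5′ ends of the same genes it ran from 2.51% at 5 kb before through 37.9% at the TSS to 51.4% at 200 bp downstream. Both profiles dipped beside the start, where a nucleosome-free gap is common in promoters. Of the 1675 strongest peaks at members, 87.5% had their summit within 1 kb of the TSS, and 67.1% of those summits were downstream of it, with a median offset over all of 155 bp. The 5′ ends gave 94.0%, 69.7% and 173 bp. All these peaks were taken because they reached within 1 kb of the TSS, which favours summits there.

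**Figure D1:**
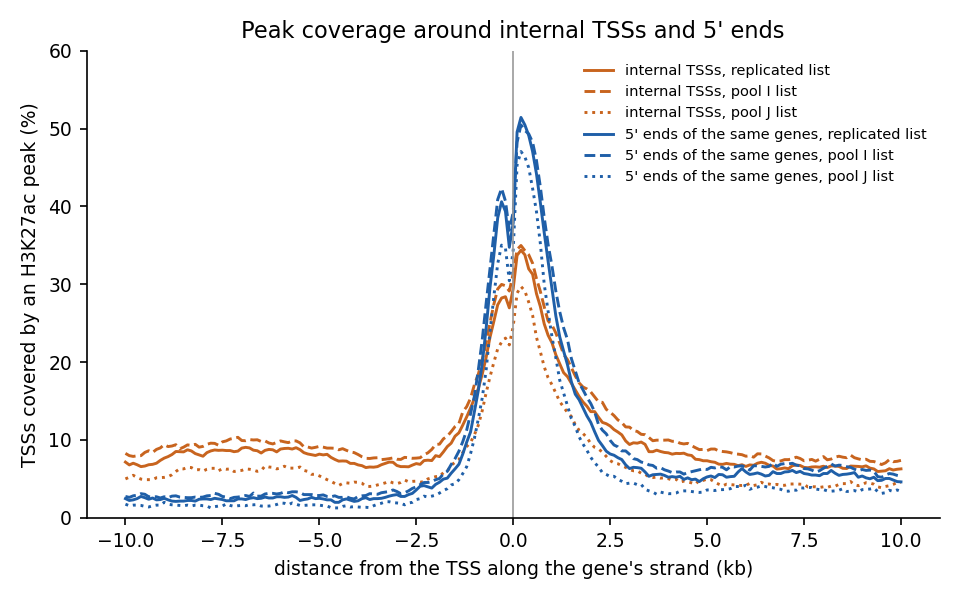
Share of TSSs covered by an H3K27ac peak (%, y axis) in steps of 100 bp by distance from the TSS along the gene's strand (kb, x axis), for the 4119 internal TSSs (orange) and the 5′ ends of the same 2512 genes (blue), in the replicated, pool I and pool J lists. The internal TSSs peaked at 34.4% and the 5′ ends at 51.4%, both 200 bp downstream, and a smaller share was covered in the pool J list.

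Peaks at internal starts ranked high among all peaks, though below those at 5′ ends in median signal. The median signal was 7.11 (interquartile range 4.27 to 11.1), at percentile 84.2 of all replicated peaks, and the median width was 1464 bp. At the 5′ ends the medians were 9.16, at percentile 90.2, and 1235 bp. A peak that several members share counts once for each in these medians. With 1 internal peak per gene the median width was 1113 bp in genes with an internal peak alone and 1478.5 bp in genes with separate peaks at both starts. Of the 1675 members with a replicated peak, 1414 (84.4%) also had one in both pool lists, 193 in that of pool I only, 13 in that of pool J only and 55 in neither. The 1423 acetylated 5′ ends were in both pool lists in 1329 cases (93.4%).

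The 2512 genes fell into 5 classes. Separate peaks at the 5′ end and at an internal TSS were present in 610 genes (24.3%), an internal peak alone in 253 (10.1%), a 5′ peak alone in 811 (32.3%), neither in 836 (33.3%), and in 2 genes 1 peak reached both starts. The pool I list gave 609 genes with separate peaks, 248 with an internal peak alone, 803 with a 5′ peak alone and 851 with neither. The pool J list gave 488, 246, 854 and 923. The count of genes with an internal peak alone thus differed little between pools (248 and 246), while the count with both differed more. In all, 865 genes (34.4%) had an acetylated internal start.

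The first of these classes to describe is that of genes acetylated inside and not at their annotated 5′ end. The median internal signal of these 253 genes was 7.08 and the median distance of the internal TSS from the 5′ end 21.3 kb. Of them, 208 (82.2%) were in the same class in both pool lists, 9 had a 5′ peak in the list of pool I and 1 in that of pool J, and 12 had a peak at another TSS of the gene that was not among the members. The 2 starts differed in sequence: the median ratio of observed to expected CpG in the 300 bases from 250 before to 50 after the TSS was 0.57 at the internal start and 0.28 at the 5′ end. A ratio of at least 0.6, common in CpG-island promoters, was reached by 118 internal starts (46.6%) and 41 of the 5′ ends (16.2%). The median ratio at the 5′ end was 0.20 in genes with neither peak and 0.78 in genes with a 5′ peak alone. Peaks went with CpG content at both kinds of start, as given below. The class is defined by those peaks, and whether the contrast is a separate trait of these genes was not tested. The internal transcript had the best transcript support level of GENCODE in 75.1% of these genes and the 5′-end transcript in 60.5%.

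Nfyc, which encodes a subunit of the CCAAT-binding factor NF-Y, had the highest signal of the class and of all members. Its internal peak (chr4:120824663-120826137) at the start of Nfyc-201, 5.87 kb inside the gene, had a signal of 31.3 in the replicated list, 36.8 in that of pool I and 24.99 in that of pool J, at percentile 99.98 of the replicated peaks. No list held a peak at its 5′ end. Its CpG ratio was 0.96 inside and 0.12 at the 5′ end. Igsf8, an immunoglobulin-superfamily membrane protein, had signals of 27.1, 32.7 and 21.3 in the 3 lists at a peak 6112 bp wide (chr1:172309413-172315524), 50.1 kb inside the gene. Dennd6a, a guanine nucleotide exchange factor of membrane traffic, had 25.5, 27.8 and 22.6, and the chromatin reader Zmynd8 had 24.5, 27.8 and 21.0. The first 4 genes of the class were thus above 20 in every list.

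The other 8 of the 12 strongest genes had lower values in the replicated list and were in the same class in every list. Pfdn4, a prefoldin subunit that helps fold actin and tubulin, had 23.8 in the replicated list, 27.9 in pool I and 19.2 in pool J, but the TSS of a non-coding gene lay within 1 kb of that start, and the 2 cannot be told apart. The same held for Fbxl5, the iron-sensing F-box protein (18.7, 21.0 and 16.0). Sri, the calcium-binding protein sorcin, had 20.1, with 18.01 in pool I (percentile 97.7 of that list) and 21.7 in pool J (percentile 99.9). Hif1a, the oxygen-regulated transcription factor, had 19.0, 21.1 and 17.1 at a start 6.53 kb inside the gene. Tmeff2, a transmembrane protein of the brain, had 18.9, 21.9 and 16.3. Its 5′ end held no CpG in the 300 bases, where the internal start had a ratio of 0.69. Nfic, a nuclear factor I protein, had 17.5, 21.3 and 13.9, and Golga7b, a palmitoylation cofactor, 16.6, 20.7 and 12.8. Shank2, a master scaffold of the postsynaptic density, had 16.4, 19.4 and 13.5 at a start 174 kb from its 5′ end, the farthest of the 12. The CpG ratio was lower inside than at the 5′ end in Zmynd8 (0.26 and 0.33) and Pfdn4 (0.49 and 0.74) and higher inside in the other 10. The 5′-end transcript had no support level in Dennd6a, level 5 in Zmynd8, Nfic and Shank2 and level 2 in Igsf8. In the rest of the 12 it had level 1, the best. The internal transcript had level 5 in Igsf8, Zmynd8 and Shank2 and level 1 in the rest.

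**Figure D2:**
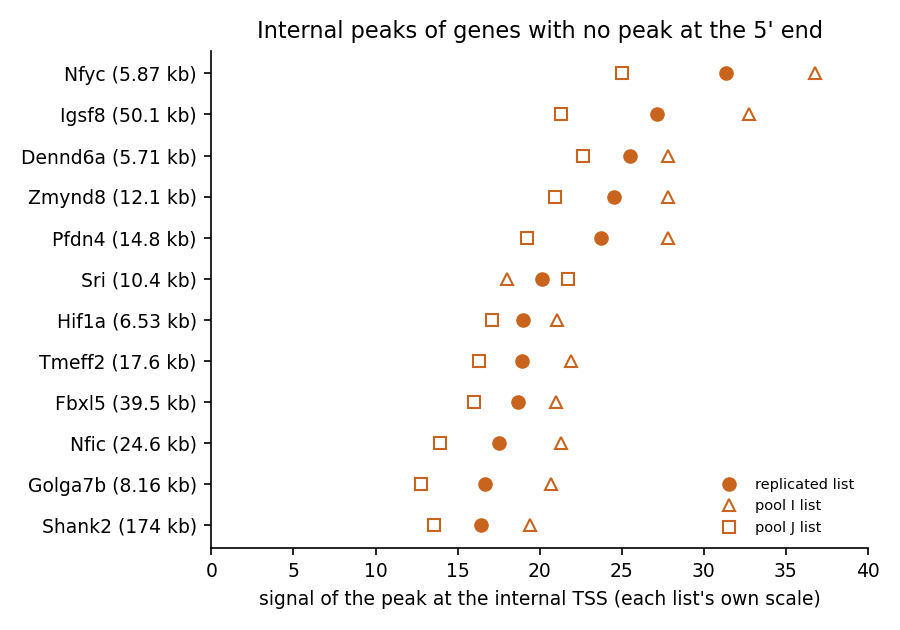
Signal of the peak at the internal TSS (x axis, on each list's own scale) for the 12 genes with the highest internal signal among those with no peak within 1 kb of the 5′ end (y axis, with the distance of the internal TSS from the 5′ end), in the replicated (filled circles), pool I (triangles) and pool J (squares) lists. Replicated values run from 31.3 in Nfyc to 16.4 in Shank2, and all 12 have a peak in every list, whose scales may differ.

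Among genes with separate peaks at both starts the 5′ end was more often the stronger. The 5′ signal was higher in 396 of 610 genes (64.9%, interval 61.0 to 68.7%) and the internal one in 214, and the median log2 ratio of internal to 5′ signal was -0.47 (interquartile range -1.17 to 0.29). Among peaks with a −log10 q of at least 5 that median was -0.29. In the pool I list the 5′ signal was higher in 64.4% of 609 genes and in the pool J list in 61.9% of 488. The 5′ signal was over 2 times the internal one in 183 genes, and the internal one over 2 times the 5′ signal in 61. A gene took its strongest internal peak, which favours genes with many internal starts. Among the 274 such genes with a single internal TSS the 5′ signal was higher in 73.0% and the median log2 ratio was -0.77. The signals at the 2 starts had a Spearman correlation of 0.0038 across the 610 genes, given as a description since genes share libraries. Of 473 genes with separate peaks in all 3 lists, 398 (84.1%) had the same stronger start in both pools, the 5′ end in 255 and the internal start in 143.

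In these 610 genes the CpG contrast ran the other way from that in genes with an internal peak alone. The median CpG ratio was 0.37 at the internal start and 0.74 at the 5′ end, and 27.7% of internal starts against 68.5% of 5′ ends reached 0.6. Over all, 727 of 4119 members and 1150 of 2512 5′ ends reached it. The 5′ median was 0.78 in genes with a 5′ peak alone. Both starts of the 610 genes had a peak by definition, and what this contrast depends on was not tested. The median 5′ signal was 9.36 and the median internal signal 6.57, at a median distance of 34.3 kb. The 5′ peaks of these genes had a median width of 1492.5 bp, against 1478.5 bp inside.

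**Figure D3:**
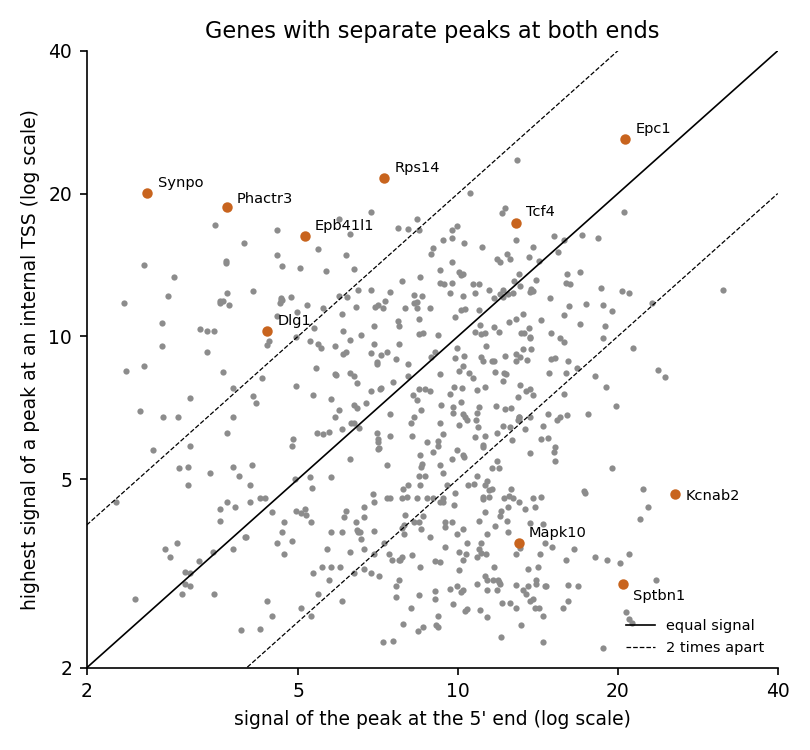
Signal of the peak at the 5′ end (x axis, log scale) against the highest signal of a separate peak at an internal TSS (y axis, log scale) for the 610 genes with both, in the replicated list. The solid line marks equal signal and the dashed lines 2 times more or less, with 396 genes below the solid line, and 10 genes are labelled for orientation.

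The strongest internal peaks in genes with both were those of Epc1, Rnf44, Rps14, Dmtn and Synpo. Epc1, a subunit of the NuA4 histone acetyltransferase, had 26.0 inside (30.3 in pool I, 21.6 in pool J) and 20.7 at the 5′ end, with a non-coding TSS within 1 kb of the internal start. Rps14, a protein of the small ribosomal subunit, had 21.6 inside (24.2 and 18.3) and 7.26 at the 5′ end (9.21 and 5.38), so that the annotated 5′ end 27.4 kb upstream was the weaker start in each list. That 5′-end transcript had no support level, where the internal one had level 1, the best. The ubiquitin ligase gene Rnf44 had 23.6 and 12.9. Dmtn, an actin-bundling protein, had 20.0 and 10.6. Synpo, the spine-apparatus protein synaptopodin, had 20.0 inside, in a peak 9683 bp wide, and 2.60 at the 5′ end, a peak that neither pool list held. Its log2 ratio of 2.95 was the highest of all 610, and the next were Fhl2 (2.46), Phactr3 (2.35), Nav2 (2.32) and Stox2 (2.29). These 5 were picked after their values were seen, and the last 4 had no 5′ peak in the list of pool J.

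Some long genes had a row of acetylated internal starts. Distinct peaks at 2 or more internal TSSs were present in 132 genes, at 3 or more in 32 and at 4 or more in 7. Pde4d, a cAMP phosphodiesterase whose long and short forms differ in their first exons, had the most: 6 distinct peaks at 6 of its 8 internal starts and none at its 5′ end. The strongest, at the start of Pde4d-208, 462 kb inside the gene (chr13:109115715-109117270), had a signal of 12.3, with 13.9 in pool I and 10.6 in pool J. A start at 788 kb had 6.23, one at 1032 kb 4.81 and one at 1249 kb 4.47, each also in both pool lists. The weakest replicated one, at 1271 kb, had 2.57 and was missing from pool J. This peak lay nearer to the next start, at 1273 kb, which had another peak of 3.55. The count of 6 thus includes a peak that lay closer to another start than to its own. The start nearest to the 5′ end, at 206 kb, had a peak in pool I only (5.32). Its relative Pde4b had 4 peaks at 7 of its 8 internal starts. Their signals ran from 3.48 at 334 kb to 9.002 at the starts near 500 to 502 kb, beside 9.85 at the 5′ end.

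The transcription factor gene Tcf4, an E-protein of neuronal development, had peaks at all 10 of its internal starts, in 5 distinct peaks. In order of distance their signals were 5.95 at 71.8 kb, 9.85 at 157 kb, 11.3 near 175 kb, 17.4 at 249 kb and 7.16 at 268 kb. The peak at 249 kb was 16348 bp wide and exceeded the 12.8 of the 5′ end, in pool I (20.8 and 14.4) as in pool J (14.4 and 9.62). Ank2, which encodes ankyrin-B, had 4 internal peaks, of 11.0 near 90 kb, 6.86 at 273 kb, 12.9 at 337 kb and 8.78 at 501 kb, and 9.26 at the 5′ end. Mcf2l, a guanine nucleotide exchange factor, had internal peaks alone, of 11.6, 5.47, 6.16 and 14.5 from 41.4 to 110 kb. The last was in both pool lists (16.9 and 10.4). Osbpl1a, an oxysterol-binding protein gene with long and short forms, had 16.4 near 78.4 kb and 6.26 at its 5′ end. Gramd1b, which encodes a cholesterol transfer protein, had values of 3.23, 7.90, 9.81 and 11.7 in order of distance, and 3.70 at the 5′ end.

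Of the 811 genes with a 5′ peak alone, those with the highest 5′ signal included H2-DMa (32.0), Tmem80 (28.7), Noct (28.6) and Rfx3 (28.0). Noct encodes the rhythmic phosphatase nocturnin and Rfx3 a factor of ciliogenesis. The internal CpG ratio was 0.060 in Tmem80 and 0.248 in Rfx3, and it was 0.77 in Noct, whose internal start had no peak in any list. H2-DMa had a weak internal peak of 5.24 in the list of pool I alone, and its 5′ end, like that of Tmem80, lay within 1 kb of the TSS of another coding gene.

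Of the properties tabulated, CpG content went with the widest differences among internal starts. A peak was present at 24.5% of the 2570 members with a CpG ratio under 0.35, 53.5% of the 822 from 0.35 to 0.6, and 83.4% of the 727 at 0.6 or above (interval 80.4 to 86.0%). The pool I list gave 24.5, 53.6 and 82.7%, and the pool J list 19.3, 45.6 and 77.3%. The 5′ ends of the same genes had 17.4%, 58.8% and 87.2% in these classes, so that within a class the internal and 5′ starts lay within 8 percentage points of one another, and CpG-poor internal starts were the more often marked. In the highest class were 727 of 4119 members and 1150 of 2512 5′ ends. The part of this make-up in the lower share over all members was not tested. Median signal at acetylated members was 5.26, 7.07 and 9.50 in the classes from low to high CpG.

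The share was also larger at greater distance from the 5′ end. It was 31.8% for members 5 to 20 kb inside the gene, 42.8% from 20 to 50 kb, 49.2% from 50 to 100 kb and 52.4% beyond 100 kb (interval 48.8 to 56.0%), and in pool J 27.5, 35.7, 42.6 and 45.0%. The order held among CpG-poor starts, with 16.6, 27.3, 33.4 and 36.7%, but not among those with a ratio of at least 0.6 (82.1, 87.0, 88.0 and 77.0%). Distance is bound to gene length, and the 2 were not separated.

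Other properties of the annotation also went with the share. Members of transcripts with support level 1 had a peak in 48.5% of cases, level 2 in 40.5%, level 3 in 37.6%, level 5 in 36.4% and those with no level in 18.8%. Starts of transcripts that the APPRIS annotation ranks as principal isoforms had a peak in 34.6% of 1727 cases, and the others in 45.0% of 2392. Starts whose transcripts begin translation at another codon than the 5′-end transcripts had a peak in 49.5% of 2287 cases, and those sharing that start codon in 29.6% of 1832. Starts inside an exon of another transcript of the gene, 41.5% of members, had a peak in 33.7%, and the rest in 45.6%. In genes with a 5′ peak 47.0% of members were marked, and in genes without one 31.6%. For members at a CpG ratio of 0.6 or above these shares were 85.8 and 80.4%, and for those under 0.35 33.4 and 11.9%. The 222 members with a non-coding TSS within 1 kb had a peak in 67.6% and the other 3897 in 39.1%.

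**Figure D4:**
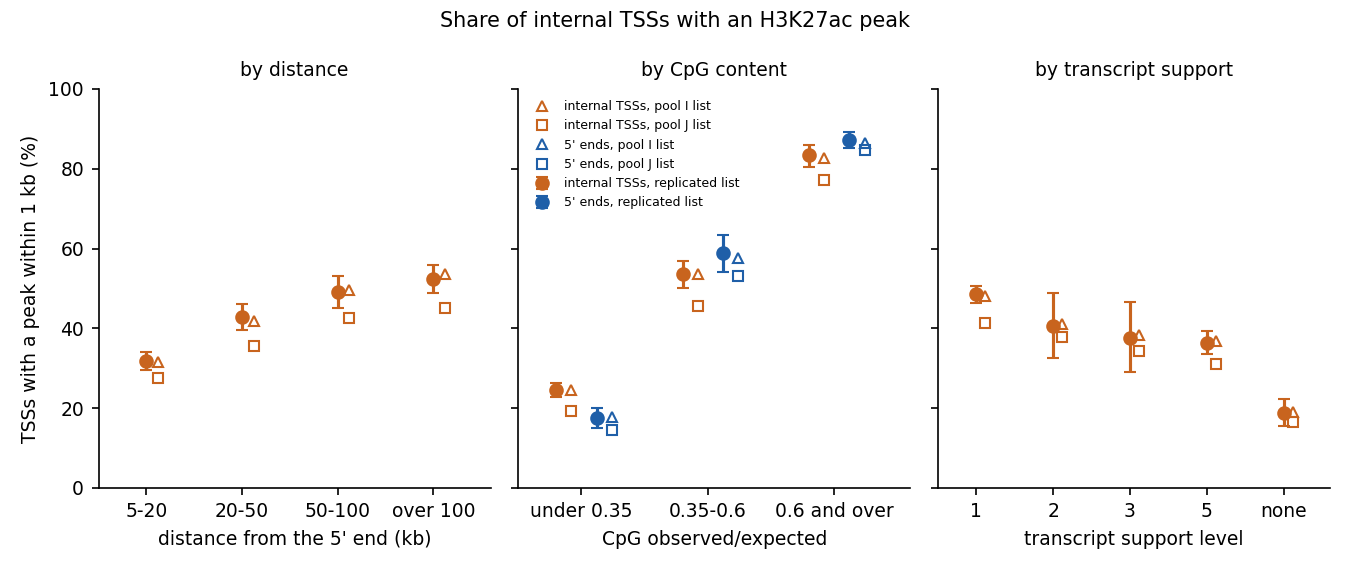
Share of TSSs with a peak within 1 kb (%, y axis) by distance from the 5′ end (kb, left), by ratio of observed to expected CpG with 5′ ends of the same genes in blue (middle) and by transcript support level (right). Filled circles are the replicated list with 95% Clopper-Pearson intervals, triangles the pool I list and squares the pool J list. The intervals treat each TSS as a separate draw. The share goes from 24.5 to 83.4% over the CpG classes.

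Short motifs were counted in the same 300 bases, on both strands except for TATAAA, which was sought on the gene's strand from 40 to 15 bases before the TSS. The Sp1-type box GGGCGG was in 40.5% of members with a peak and 10.7% of those without. It was in 45.6% of the 5′ ends of all autosomal coding genes, counted with or without a peak. The NRF1-type word GCGCATGC was in 2.87 and 0.45%, and the cAMP response element TGACGTCA in 2.21 and 0.65%, where the 5′ ends had 3.56 and 2.49%. These 3 words hold CG, so their shares are not separate from the CpG content above. Whether they differed among starts of like CpG content was not tested. CCAAT, which holds none, was in 31.5% of members with a peak, 37.4% of those without and 38.4% of 5′ ends. TATAAA was rare in all, at 1.13, 1.27 and 2.47%. Among the 1423 5′ ends with a peak in genes with an internal start, GGGCGG was in 66.3%, GCGCATGC in 4.92% and TGACGTCA in 3.37%. CCAAT was in 33.7% of them and TATAAA in 0.28%. The internal starts of the 253 genes with an internal peak alone had GGGCGG in 49.0%.

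Gene groups of neurons and glia were then followed through the same classes. They were lists of textbook members chosen with results of these data known, so their counts are descriptions beside the 865 of 2512 genes (34.4%) that had an internal peak over all, or, for internal starts, the 1675 of 4119 (40.7%), and nothing particular to a group is drawn from them. Counts are of the replicated list, with those of the pool lists where they differ from it. In the neurexin and cell adhesion group 12 of 14 genes with an internal start had a peak there (11 in pool J), 8 of them with a separate 5′ peak. Nrxn2 had 15.7 at starts 79.1 kb inside (19.4 in pool I, 12.1 in pool J), none at those near 9.2 kb, and 10.3 at the 5′ end. In Nrxn3 the internal starts at 159 and 1018 kb had 9.76 and 4.37, and the annotated 5′ end none in any list. Nlgn1, the neuroligin that binds neurexins across the synapse, had 13.6 inside and 13.05 at the 5′ end, and Opcml, a cell adhesion molecule of the IgLON family, 13.05 and 12.7. The adhesion receptors Tenm4 (15.2), Ptprd (9.46) and Tenm3 (5.71) had an internal peak alone in every list.

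Of 14 postsynaptic scaffold genes 13 had an acetylated internal start, at 50 of their 57 members (40.7% of members over all). Dlg1, which encodes SAP97, had 10.3 inside and 4.37 at the 5′ end, higher inside in both pools (11.8 and 4.09 in pool I, 8.94 and 4.64 in pool J). Magi2 (13.05 and 7.85), Magi1 (12.5 and 6.86) and Iqsec1 (12.1 and 6.19) were also higher inside. Dlg4, the gene of PSD-95, had 6.86 inside and 10.2 at the 5′ end, and Dlg2 9.89 and 18.7. Shank3 had 3.87 inside, with a non-coding TSS within 1 kb, and 12.4 at the 5′ end, where Shank2 had an internal peak alone. Anks1b had the most internal starts of any gene, 18, of which 17 had a peak, in 2 distinct peaks. Homer2 had a 5′ peak alone (8.26). In the presynaptic release group 3 of 5 genes had an internal peak, among them Unc13b (10.3 inside and 3.47 at the 5′ end), and Rims1 (13.4) and Erc1 (12.3) had a 5′ peak alone.

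Cytoskeletal genes had an internal peak in 15 of 21 cases (18 in pool I and 12 in pool J), and 42 of their 76 members had one. Epb41l1, the neuronal protein 4.1N, had 16.2 inside (18.8 in pool I, 14.1 in pool J) and 5.14 at the 5′ end (5.79 and 4.82). Tpm1 had 11.9 at a start 5.44 kb inside and 4.67 at the 5′ end, and Tpm3, another tropomyosin, 13.6 inside and none at the 5′ end. Ank3, which encodes the ankyrin-G of the axon initial segment, had peaks at 6 of its 14 internal starts (7.68) and none at the 5′ end. In the other direction, the spectrin gene Sptbn1 had 3.01 inside and 20.4 at the 5′ end, and Sptan1 (22.1), Mapt, the gene of tau (19.1), and Add1 (15.1) had a 5′ peak alone in every list.

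Signalling genes followed. In the group of cAMP phosphodiesterases and protein kinase A 12 of 14 genes had an internal peak (11 in each pool list). Pde8b had 11.2 inside and 6.04 at the 5′ end. Prkacb, a catalytic subunit of protein kinase A, had 12.8 inside and 13.1 at the 5′ end in the replicated list, but was higher inside in pool I (16.7 and 15.9) and in pool J (10.4 and 9.41). Crem, whose internal promoter is known to give the repressor ICER, had 11.3 inside and 19.5 at the 5′ end. Pde1c had no peak at any of its 8 internal starts or its 5′ end. Of 13 kinases and exchange factors 12 had an internal peak (10 in pool J). Prkcz, whose internal promoter is known to give the brain form PKMzeta, had 13.2 inside (17.0 in pool I, 11.3 in pool J) and no 5′ peak in any list, although its 5′ end had a CpG ratio of 0.89. Dclk1, a doublecortin-like kinase, had 15.9 and 12.8, Kalrn, the spine exchange factor kalirin, 8.33 and 5.88, and Sgk1, a stress-induced kinase, 17.1 and 9.94. In pool J, however, Sgk1 was lower inside (6.05) than at the 5′ end (8.91). Camk2a had 3.01 inside, not in pool J, and 14.0 at the 5′ end.

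Ion channel genes had an internal peak in 8 of 15 cases (9 in pool I), 4 of them without a 5′ peak. The calcium channel subunits Cacna1c (11.7), Cacna1e (9.92) and Cacna1d (8.56) were acetylated inside and not at the annotated 5′ end in every list, and their internal starts had CpG ratios of 1.10, 0.60 and 0.69, against 0.15, 0.23 and 0.34 at the 5′ ends. The sodium channel gene Scn8a (14.1) and the potassium channel gene Kcnma1 (16.2) had a 5′ peak alone, although the list of pool I held an internal peak in Kcnma1. Kcnab2, a potassium channel beta subunit, had 4.65 inside and 25.7 at the 5′ end. Of 5 glutamate and GABA receptor genes 2 had an internal peak. Grik2, a kainate receptor subunit, had 6.56 inside and 9.25 at the 5′ end.

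In the neurotrophin and neuregulin group all 5 genes had an internal peak in the replicated list, and 4 in pool J. Bdnf, the activity-regulated neurotrophin with many first exons, had weak peaks at 5 of its 6 internal starts. The highest signal within 1 kb of its starts at 17.7 and 18.3 kb was a shared peak of 4.27 (4.91 in pool I, 3.90 in pool J). Those from 18.9 to 19.8 kb had one of 3.75 that was not in pool J. That weaker peak covered the start at 18.3 kb, whereas the peak of 4.27 ended before both of its starts. The start at 34.7 kb had none. The annotated 5′ end of Bdnf had no peak in any list, but another TSS of the gene, not among the members, had one. Nrg1 had 3.01 inside and 10.9 at the 5′ end, and Fgf12 10.9 and 8.44. Fgf12 was higher inside in pool I (11.7 and 9.93) and in pool J (9.65 and 6.85) as well.

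Regulators of transcription and splicing formed the next groups. Of 21 transcription factor genes 15 had an internal peak (16 in pool I), at 45 of 67 members, where the share over all members was 40.7%. Zeb2, a repressor of neuronal and glial development, had 18.2 inside and 12.1 at the 5′ end, but 22.1 and 22.0 in pool I, and a non-coding TSS lay within 1 kb of the internal start. Mef2c, an activity-regulated factor, had peaks at all 8 internal starts (14.2) and none at the 5′ end in the replicated list, where pool I held a weak one (3.93). Foxp1 had 8.26 inside and 18.1 at the 5′ end, and Satb1 10.1 and 6.56. Rorb, Sox5 and Tcf7l2 had a 5′ peak alone, of 6.56, 5.86 and 4.57. All 11 RNA-binding genes had an internal peak in the replicated and pool I lists and 10 in pool J, at 39 of 43 members in the replicated list. Mbnl1, a splicing regulator, had 13.1 inside and none at the 5′ end, where pool I held 4.11. Elavl4 (12.5 and 6.48) was higher inside, and Celf5 (8.99 and 15.2), Rbfox1 (6.16 and 11.3) and Mbnl2 (5.85 and 15.2) were higher at the 5′ end. Rbfox3, the gene of the neuronal marker NeuN, had 8.16 inside and none at its annotated 5′ end, with a peak at another of its TSSs.

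Glial and imprinted genes were few. All 5 glial genes had an internal peak in the replicated list, with a median signal of 4.09, and 4 in pool J. Mbp, the gene of myelin basic protein, has its myelin form start inside the longer golli unit. The 7 internal starts near 79.3 kb shared a peak of 5.56 (6.55 in pool I, 4.64 in pool J), below the 10.3 of the 5′ end. That peak ended upstream of all 7 starts and covered none of them. Aqp4, the astrocyte water channel, had 3.67 inside and none at the 5′ end, with a non-coding TSS within 1 kb. P2ry12, a microglial receptor, had 4.09 and 3.57. Of 5 imprinted genes 3 had an internal peak. Gnas had 11.5 (14.1 and 9.83) at 4 starts from 45.7 to 46.0 kb, 5.21 at the one at 43.4 kb and none at that at 13.5 kb or at the 5′ end. Grb10, which neurons are known to express from an internal promoter of the paternal allele, had 6.86 (6.34 and 6.31) at 9.43 kb inside and none at the 5′ end, whose CpG ratio was 0.96. No allele was told apart in these values. Igf2 and Zim1 had no peak at either start.

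**Figure D5:**
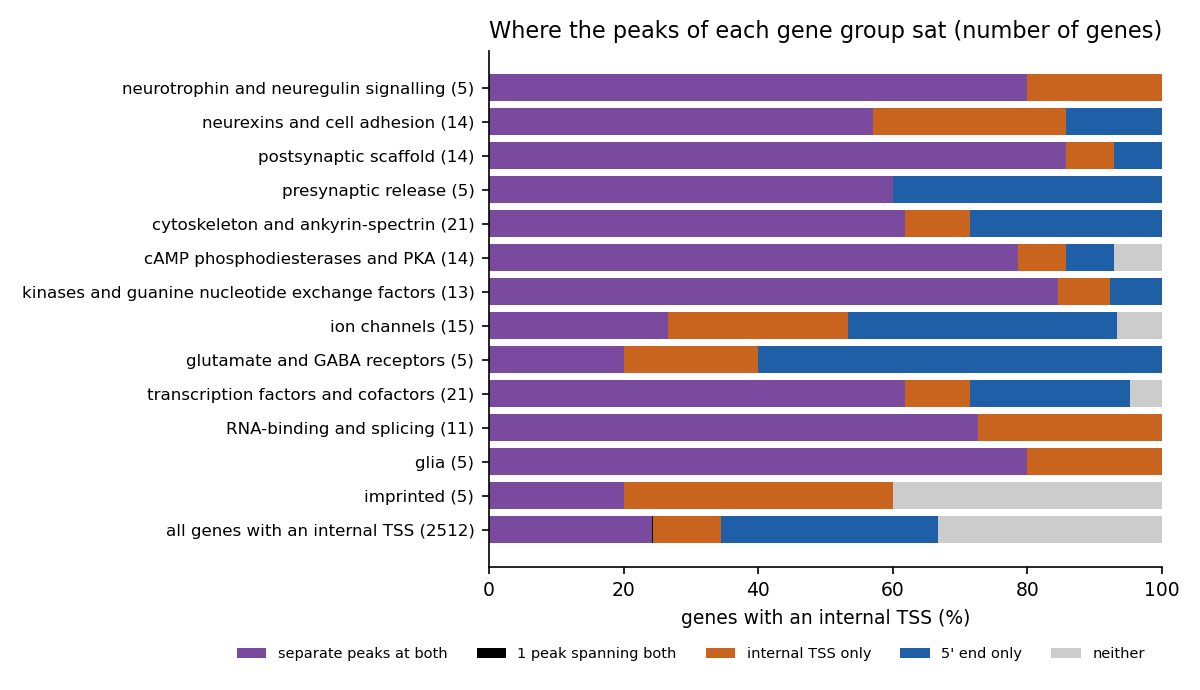
Share of the genes with an internal TSS (%, x axis) that had separate peaks at both starts, 1 peak spanning both, a peak at an internal TSS only, at the 5′ end only or at neither, for 13 gene groups and for all 2512 genes (y axis, number of genes in parentheses). In the replicated list, which is plotted, all 11 RNA-binding genes and 8 of 15 ion channel genes had an internal peak, beside 865 of 2512 genes over all.

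At the edge of the rule the shares were alike. The 3 members just inside the 5 kb limit, in Olfr556 (5002 bp), Mindy1 (5004 bp) and Olfr1386 (5008 bp), had no peak, and of the 3 TSSs just outside it that of Pef1 (4998 bp) had one of 8.99 and those of Olfr678 (4994 bp) and Rnf121 (4993 bp) had none. A peak lay at 27.9% of the members 5 to 6 kb from the 5′ end and at 24.8% of TSSs 4 to 5 kb from it. As a check of the tissue, promoter peaks were present at 6 of 6 excitatory neuron markers, 3 of 4 of interneurons (none at Lhx6), 5 of 5 of astrocytes, 5 of 5 of oligodendrocytes and 4 of 4 of microglia, at 0 of 4 of liver and at 2 of 4 of striated muscle (none at Ckm and Actc1).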

How the data were processed

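H3K27ac ChIP-seq peaks of mouse left cortex were analysed as lists in mm10 coordinates, which the authors deposited in narrowPeak form. The authors deposited a signal value, a −log10 q-value and a summit offset for each peak. Per the README texts deposited with the samples, both libraries of a pool went into a common filtered alignment, a list derives from 1 pool or from both, and the 4 lists are a replicated list, a pseudoreplicated list of both pools and 1 pseudoreplicated list for each pool. The sources used here do not give the aligner, the peak caller, the scaling of the signal or the read depth, so depth is unknown and signals were compared within a list.

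TSSs, transcript support levels and exons came from GENCODE vM21, and sequences from GRCm38.p6. A TSS had a peak when any base of a peak lay within 1 kb, and took the highest signal where several did. Peaks at the 2 starts were separate when the internal one did not reach within 1 kb of the 5′ end. Shares have 95% Clopper-Pearson intervals, which treat each TSS or gene as a separate draw, and no test was run. The code was tested on made-up starts and peaks with known answers (Python 3.11.15, numpy 2.4.6, scipy 1.17.1, pysam 0.24.0).

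The members, gene groups and marker lists were chosen with earlier results of these data known. Genes were named by fixed rules: the 12 highest internal signals, the 12 highest among genes with no 5′ peak, the 8 genes with the most distinct internal peaks, the 6 highest 5′ signals among genes with no internal peak, members of 13 gene groups, and the TSSs nearest the 5 kb limit. A few genes that these rules name are not reported here, though the counts include them. Alternatives were the other lists, a −log10 q minimum, other windows and distances, and other choices of TSSs and genes.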

Additional observations from a re-analysis of the deposited data

How the results depend on the processing

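Each of the 7 summary values was recomputed under up to 12 planned and 3 added alternatives, the latter chosen after seeing the data. The median log2 ratio stayed below 0. Counts stayed within 1.5 times, at 184 to 265 genes with an internal peak alone and 461 to 698 with separate peaks. The number of genes behind them differed, so the shares moved more than these counts show. The main setting gave 253 and 610 of 2512 genes. A 10 kb minimum distance gave 184 and 495 of 1734, and support level 1 alone 220 and 482 of 1529. With 1 pool's list alone the share of marked internal TSSs was 34.8 to 40.6%, of genes 29.3 to 34.2% and of midpoints 7.56 to 12.1%, and the median log2 ratio -0.41 to -0.34. With a −log10 q of at least 5 these were 34.5%, 28.3%, 7.02% and -0.29, with a 500 bp window 38.5%, 32.5%, 8.52% and -0.38, with a 2500 bp window 44.1%, 37.7%, 17.7% and -0.54, and with the summit within 1 kb 37.0%, 32.4%, 8.77% and -0.41. A 10 kb minimum distance gave 44.4% of TSSs and 39.2% of genes, support level 1 alone gave 48.5%, 46.0% and a log2 ratio of -0.38, TSSs within 1 kb counted once gave 33.8% and those with no non-coding TSS near 39.1%. Without genes whose 5′ end lay within 1 kb of another coding TSS the log2 ratio was -0.41, and in genes with 1 internal TSS it was -0.77 with the 5′ signal higher in 73.0%. All members were already of protein-coding transcripts, so that restriction left the values as they were. Where not set by the alternative's construction, the cause was not tested. No paired analysis was possible because there was 1 group and no contrast.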
